A study of Homo sapiens with 15 samples.

Results

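Kinesins are ATP-driven motor proteins that move along microtubules. The kinesin genes of LNCaP cells were taken by name, as every row of the expression table with a symbol made of KIF, a number and at most a letter from A to C, or with the symbol KIFC1, KIFC2 or KIFC3. This gave 34 genes of the 17272 in the table, and no measured value entered the choice. They were sorted by textbook role into 13 mitotic, 12 transport and 9 ciliary or other kinesins. Of 42 kinesins listed, KIF2B of the mitotic list, KIF5A, KIF17 and KIFC3 of the transport list, and KIF19, KIF21B, KIF25 and KIF26A of the last list had no row under these symbols and were not analysed here.

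The study was about radium-223 and enzalutamide in prostate cancer, and its RNA sequencing asked how DNA repair genes of androgen-stimulated cells respond to enzalutamide. LNCaP cells are a human prostate cancer line that responds to androgen, R1881 mimics natural androgen, and enzalutamide blocks the androgen receptor. All cells had been starved for 2 days in medium with charcoal-stripped serum, which holds little steroid hormone, and all then received 1 nM R1881. A set of 10 libraries came from cells given R1881 with the solvent DMSO (hereafter R1881) and 5 came from cells given R1881 with 2 µM enzalutamide, each harvested after 22 h. No library without R1881 was analysed here, so the values compare androgen stimulation with and without its blocker. The study's methods call the libraries biological replicates, and the labels do not say whether each came from a separate culture, so p-values measure the spread between these libraries.

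Mitotic kinesins build and work the spindle. They push spindle poles apart, move and align chromosomes, trim microtubule ends, and bring the machinery of cytokinesis to the midzone. Transport kinesins carry vesicles, endosomes, mitochondria and ciliary cargo along the microtubules of cells that are not dividing as well as of those that are. Transcripts of many mitotic kinesins are made mainly in the G2 phase and in mitosis, so that their level in a culture is known to follow the share of dividing cells, whereas transport kinesins are made throughout the cell cycle.

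Polyadenylated RNA was sequenced to a depth of 15.8 to 24.3 M reads on genes per R1881 library and 21.2 to 25.4 M per enzalutamide library. The deposited value is a normalized signal, read counts scaled by library, and is called the value below. The androgen targets responded as a check of the treatment: the mean value of KLK3, which encodes prostate-specific antigen, was 1588 with R1881 and 134 with enzalutamide, and that of FKBP5 was 1502 and 46.8. All 8 luminal prostate markers looked for were in the table, whereas 1 of 3 basal, 2 of 6 neuroendocrine and 4 of 10 stromal, endothelial and blood cell markers were. The summed value of those 4 (COL1A1, COL3A1, LUM and VWF) rose from between 9.04 and 13.4 to between 24.1 and 30.1, and its part in the results on kinesins was not tested. The deviation of a gene from its group mean followed its GC content in several libraries, by Spearman correlation across 13790 genes, which are not independent replicates. The trend was positive in R1881 replicates 5 (0.57) and 6 (0.73) and enzalutamide replicate 2 (0.71). It was negative in R1881 replicates 7 (-0.56), 9 (-0.54) and 10 (-0.62) and enzalutamide replicates 1 (-0.48) and 4 (-0.49). Calls of single kinesins and counts of kinesin calls that change without the 3 libraries of positive trend are given in both forms. They stand beside a fit with the trend removed from every library. Ratios, sums and shares, and the partner, dynein and marker genes, were not computed again in either way.

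Enzalutamide was accompanied by lower mRNA of every mitotic kinesin in the table, while transport kinesins moved in both directions. All 13 mitotic kinesins fell, with log2 fold changes from -2.08 to -0.59 and a median of -0.97 (limma, adjusted p under 0.05). Across all 17046 genes tested, 32.7% were called lower, and the median log2 fold change was -0.01. The split over all genes, 5577 lower and 5083 higher, depends on the scaling: it was 4288 and 6629 with library totals made equal, where all 13 mitotic kinesins were still called lower, and 4948 and 5796 with edgeR. In 12 of the 13 each enzalutamide library lay below every R1881 library, where 20.1% of all genes did so. At least a 2-fold fall was called for 6 of the 13, against 4.19% of all genes. Removing the trend on GC content gave a median of -0.93, and leaving out the 3 libraries of positive trend gave -0.96.

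Of the 12 transport kinesins, 4 fell, 5 rose and 3 did not pass the test, with a median of -0.02 and a range from -0.62 to 0.99. Without the 3 libraries of positive GC trend 4 rose. Among all genes 29.8% were called higher. The enzalutamide libraries lay wholly above the R1881 libraries for 3 of the 12, where 17.1% of all genes did so, and wholly below them for another 3. The ciliary or other kinesins counted 1 lower, 4 higher and 4 that did not pass, with a median of 0.15. Over the whole family 27 of 34 were called, beside 62.5% of all genes, so a call on its own sets no kinesin apart here and the size and the direction carry the description.

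**Figure D1:**
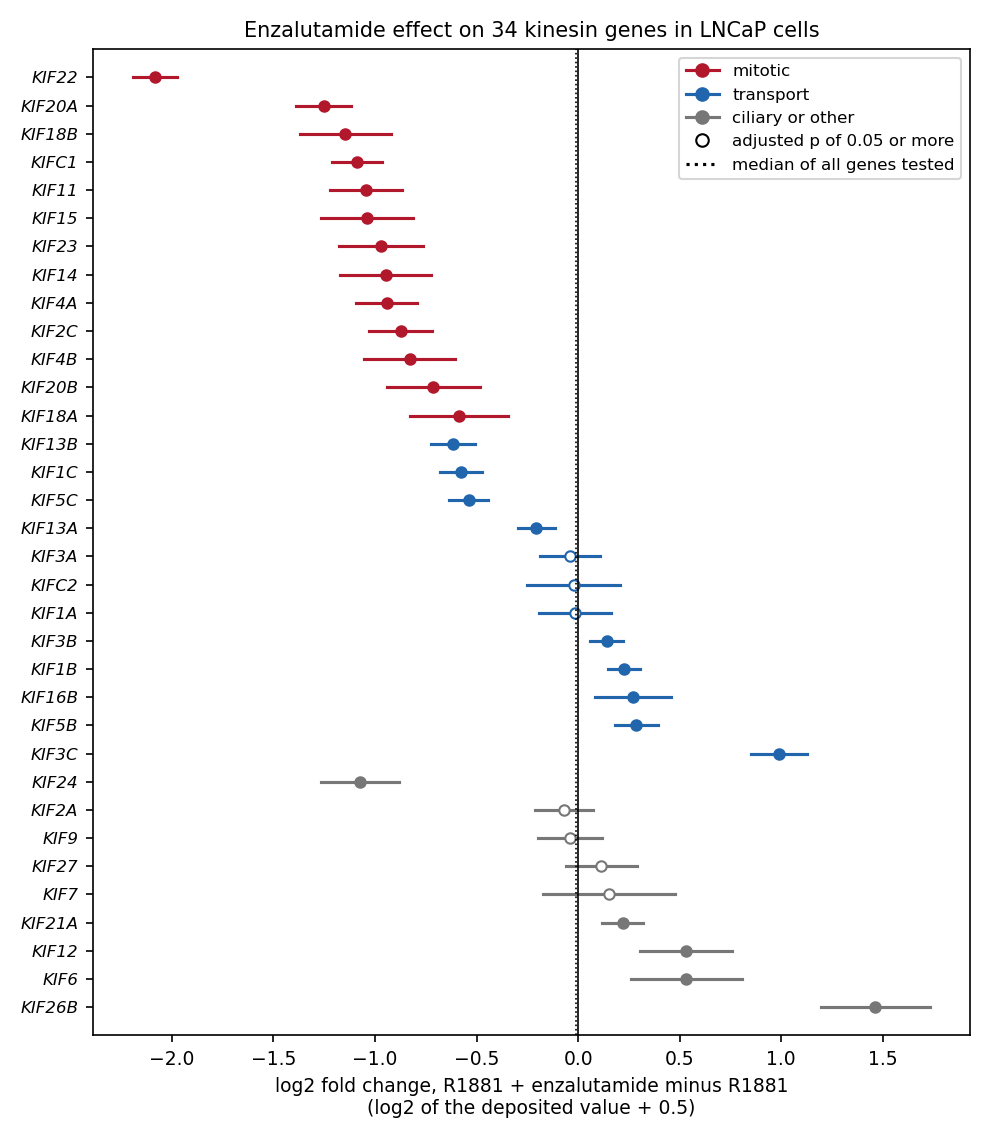
Log2 fold change of R1881 + enzalutamide (5 libraries) against R1881 (10 libraries) for the 34 kinesin genes, with 95% confidence intervals from limma; filled points passed an adjusted p of 0.05. All 13 mitotic kinesins (red) lie at -0.59 or below, the 12 transport kinesins (blue) spread from -0.62 to 0.99, and KIF24 at -1.07 is the lowest of the others (grey).

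In sums, the 13 mitotic kinesins together had a value of 420 to 488 in the R1881 libraries and 168 to 191 in the enzalutamide libraries. The 12 transport kinesins together had 1222 to 1310 and 1235 to 1349. Mitotic genes thus made up 22.9% to 25.5% of the kinesin signal with R1881 and 10.6% to 11.8% with enzalutamide, and these ranges do not overlap. The sums, unlike these shares, depend on the scaling, as library totals were 1053406 to 1078567 with R1881 and 985580 to 1008992 with enzalutamide. With totals made equal the median log2 fold change was 0.074 for transport kinesins and 0.075 for all genes, but the sums were not computed again. The overlap of the transport sums therefore does not show an unchanged total. In RNA from a whole culture, fewer cells in mitosis and less kinesin mRNA per mitotic cell cannot be told apart.

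Other genes of cell division moved with the mitotic kinesins. All 12 S phase markers and all 12 markers of G2 and mitosis fell, each list with a median of -0.89, where 32.7% of all genes were called lower. All 14 mitotic partners, which include subunits of the chromosomal passenger complex and proteins that bind spindle microtubules, fell as well, with a median of -0.95. The largest falls among these partners were those of KNSTRN, which encodes a kinetochore and spindle protein (-1.60), AURKB, which encodes the passenger complex kinase (-1.09), and CEP55, which encodes an abscission protein (-1.07). The smallest were those of CENPE, itself a kinesin of the kinetochore whose symbol falls outside the name rule (-0.69), ECT2 (-0.70) and PRC1 (-0.85). When KIF22 was set aside, the remaining 12 mitotic kinesins summed to 29.0% to 30.2% of the summed G2 and mitosis markers in the R1881 libraries and to 26.6% to 27.8% in the enzalutamide libraries, ranges that lie close together without overlap. KIF22 alone was at 14.3% to 22.4% of the same sum with R1881 and at 6.33% to 8.92% with enzalutamide.

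The promoters are shown here because the mitotic kinesins share letters in them that the choice by name did not use. Many promoters of genes made in G2 and mitosis hold a cell cycle genes homology region (CHR), bound by the DREAM and MuvB complexes, close to the start, and CCAAT boxes bound by NF-Y upstream of it. RefSeq promoter windows (build GRCh38.p14, 250 bases upstream of the start and 50 from it on) were found for 30 of the 34 kinesins, with the first listed window used for the 7 genes that have several. Both strands were searched for TTTGAA or TTTAAA (CHR, main forms), for these plus TTCGAA or CTTGAA (CHR, 4 forms) and for CCAAT. The CHR and CCAAT letters overlapped in 0 kinesin windows. In the 7 genes with several windows, no window held main-form CHR letters, but the other matches depend on the window used. The window used for KIF5C, chr2:148947625-148947924, lies inside the gene and holds a rarer CHR form without CCAAT. The second window of KIF5C holds CCAAT without a CHR form. CCAAT letters were absent from the second windows of KIF22, KIF6 and KIF1B. The 100 bases before the start are printed for members with distinct roles, with the 4 CHR forms and CCAAT in capitals and the gene's own strand written 5′ to 3′. A match is a description of letters and not evidence of binding.
KIF11, chr10:92593030-92593129, plus strand: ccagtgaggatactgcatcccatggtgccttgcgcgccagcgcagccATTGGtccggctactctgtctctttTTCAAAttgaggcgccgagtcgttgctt
KIF15, chr3:44761694-44761793, plus strand: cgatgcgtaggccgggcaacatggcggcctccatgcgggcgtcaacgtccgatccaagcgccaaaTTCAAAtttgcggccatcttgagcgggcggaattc
KIF22, chr16:29790651-29790750, plus strand: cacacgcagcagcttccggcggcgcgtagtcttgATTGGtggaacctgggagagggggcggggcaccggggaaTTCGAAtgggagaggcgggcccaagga
KIF4A, chrX:70290004-70290103, plus strand: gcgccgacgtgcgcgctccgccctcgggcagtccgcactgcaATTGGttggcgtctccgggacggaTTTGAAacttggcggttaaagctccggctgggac
KIF18A, chr11:28108157-28108256, minus strand: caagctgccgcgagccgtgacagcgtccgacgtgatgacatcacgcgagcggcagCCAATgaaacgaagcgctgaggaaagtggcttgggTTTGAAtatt
KIF20A, chr5:138179012-138179111, plus strand: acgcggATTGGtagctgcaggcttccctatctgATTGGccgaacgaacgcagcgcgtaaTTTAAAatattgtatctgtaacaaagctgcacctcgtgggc
KIF23, chr15:69414249-69414348, plus strand: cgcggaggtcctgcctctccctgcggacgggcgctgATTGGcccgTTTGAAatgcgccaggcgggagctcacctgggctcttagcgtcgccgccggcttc
KIF24, chr9:34329269-34329368, minus strand: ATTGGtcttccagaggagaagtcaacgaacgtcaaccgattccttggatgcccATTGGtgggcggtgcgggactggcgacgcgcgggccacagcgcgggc

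Main-form CHR letters were present in 12 of the 13 mitotic promoters, all except KIF22. They stood in 2 of 10 transport promoters (KIF5B and KIF16B) and in 0 of 7 ciliary or other ones, while 24.0% of all 35116 RefSeq windows and 15.5% of the first windows of 9968 genes in the expression table held them. KIF22 holds the rarer form TTCGAA from -27 to -22, as its printed sequence shows. With 4 forms the counts were 13 of 13, 4 of 10 and 2 of 7, beside 32.2% of all windows. Within -60 to 40 of the start, a stretch chosen after the positions were seen, main-form letters occurred in 12 of 13 mitotic, 0 of 10 transport and 0 of 7 other promoters, and in 7.59% of all windows.

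CCAAT letters occurred in 11 of 13 mitotic promoters, all but KIF2C and KIF15, in 3 of 10 transport promoters and in 3 of 7 others, beside 34.6% of all windows. In KIF11, KIF4A, KIF18A and KIF23 a CCAAT box in either orientation lies upstream of the CHR letters within the printed stretch, and KIF20A has a pair of such boxes. CHR and CCAAT letters stood together in 10 of 13 mitotic promoters, 1 of 10 transport promoters (KIF5B) and 0 of 7 others, against 9.27% of all windows. The promoters of the mitotic partners held main-form CHR letters in 9 of 11 cases and those of the G2 and mitosis markers in 8 of 10. Those of the dynein list and of the transport partners held them in 0 of 20 and 0 of 11. Within -60 to 40, the mitotic partners had them in 8 of 11 cases, but the G2 and mitosis markers in only 4 of 10. The hexamer AGAACA, part of an androgen response element, was found in 0 of 13 mitotic and 2 of 10 transport windows (KIF1A and KIF1C), where 14.8% of all windows held it. It stood in 3 of 10 windows of the G2 and mitosis markers and 2 of 20 of the dynein list. Ciliary or other kinesins held it in 0 of 7, mitotic partners in 0 of 11, transport partners in 0 of 11 and S phase markers in 0 of 9.

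**Figure D2:**
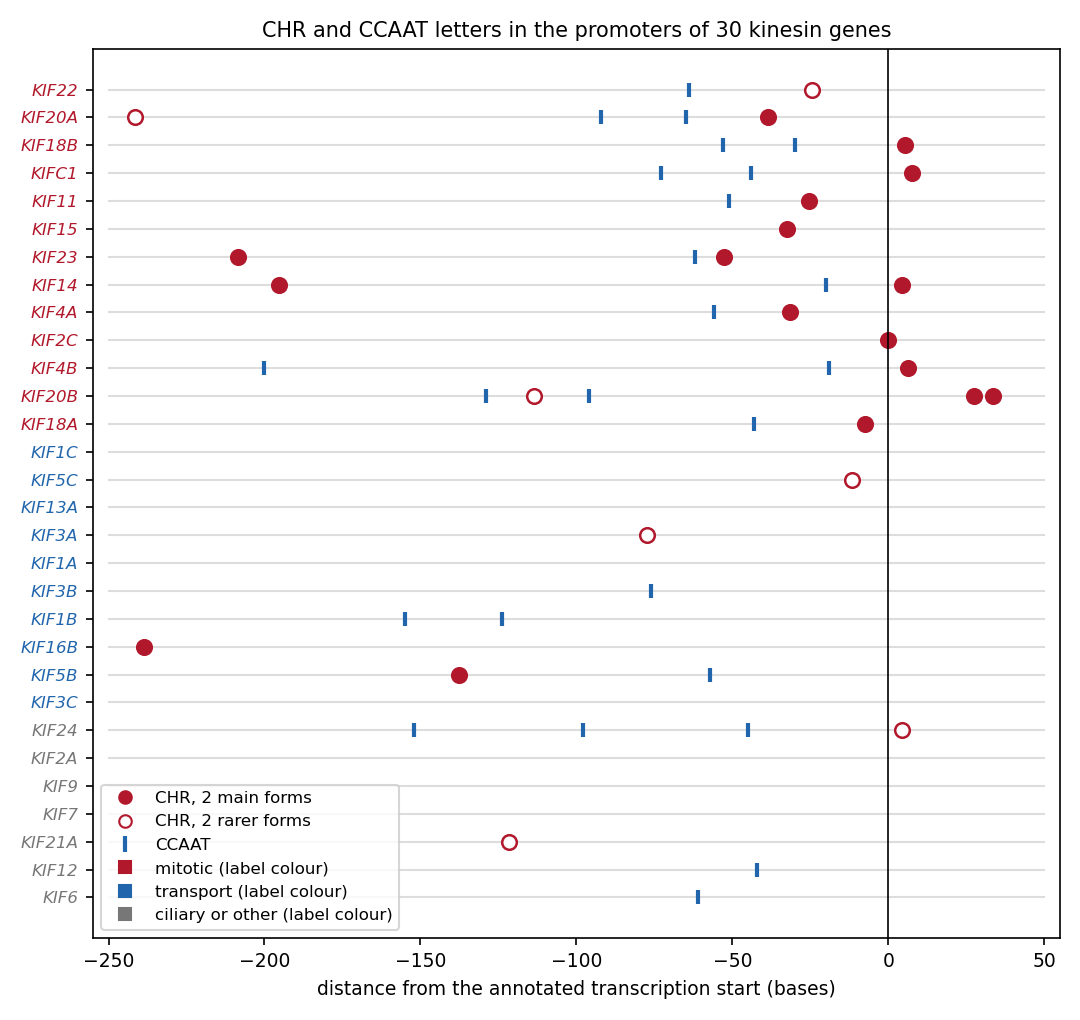
Position of CHR and CCAAT letters in the promoters of 30 kinesin genes, as distance in bases from the annotated transcription start; gene names are red for mitotic, blue for transport and grey for other kinesins. Filled circles, the main CHR forms, gather between -60 and 40 in 12 of 13 mitotic promoters, and no transport or other promoter has one there. The stretch was chosen after the positions were seen.

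The 3 motors that set up the spindle fell by 1.04 to 1.09 on the log2 scale. KIF11 (Eg5), which slides antiparallel microtubules apart to make the spindle bipolar, ranged from 31.9 through a median of 38.1 to 47.6 in the R1881 libraries. With enzalutamide it was 20.16, 14.98, 18.24, 19.99 and 18.35 in replicates 1 to 5. Every enzalutamide library lay below every R1881 library, and the log2 fold change was -1.04 (SE 0.085, limma adjusted p = 8.35e-10). KIF15, which can hold the poles apart beside KIF11, ranged from 11.8 through 13.1 to 17.2 with R1881 and was 6.66, 4.42, 6.64, 8.00 and 6.70 with enzalutamide, again without overlap (-1.04). KIFC1 (HSET), the minus-end-directed motor that focuses spindle poles and clusters extra centrosomes, ranged from 21.4 through 22.9 to 26.4 with R1881. Its enzalutamide values were 10.2, 10.9, 10.4, 12.1 and 10.3, a narrow band under the R1881 range, and its log2 fold change was -1.09 (SE 0.06, limma adjusted p = 1.22e-12).

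Among the motors on chromosomes and microtubule ends, KIF22 stood out by size. KIF22 (KID, ENSG00000079616, chr16:29790727-29805385, GRCh38, plus strand), a chromokinesin that pushes chromosome arms away from the poles, ranged from 152 through 159.8 to 191 with R1881. It was 34.6, 42.0, 36.8, 37.5 and 41.1 with enzalutamide. The mean with enzalutamide was 0.234 times that with R1881 and the log2 fold change was -2.08 (SE 0.052, limma adjusted p = 1.95e-18), at place 159 from the lowest among 17046 genes. Its interval, -2.19 to -1.97, does not overlap that of the next mitotic kinesin, KIF20A, at -1.39 to -1.12. The ratio of KIF22 to KIF20A went from 3.54 ± 0.574 (SD, n = 10) to 1.99 ± 0.25 (SD, n = 5), with an exact permutation p of 0.000333, the smallest that 3003 regroupings of the libraries allow. The pair was chosen after the values were seen, and this p does not account for that choice. GENCODE v44 places a long noncoding RNA on the opposite strand that shares 561 exon bases with KIF22, and no source used here says whether reads were counted by strand.

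The other chromosome motors fell by less. KIF4A, which sets the length of the anaphase central spindle with PRC1, ranged from 33.8 through 40.1 to 45.6 with R1881 and was 20.8, 17.6, 20.6, 20.9 and 20.9 with enzalutamide (log2 fold change -0.94). KIF4B, its intronless relative, ranged from 3.82 through 5.66 to 6.87 and was 3.03, 2.79, 2.73, 2.47 and 3.02 (-0.83). Neither pair of groups overlapped. The ratio of KIF4B to KIF4A was 0.138 ± 0.0147 (SD, n = 10) with R1881 and 0.14 ± 0.0151 (SD, n = 5) with enzalutamide (exact permutation p = 0.775), and a change in this ratio was not detectable. Since 50-base reads can be split between such close copies, the level of KIF4B is uncertain. KIF2C (MCAK), the centromeric depolymerase that frees wrongly attached microtubules, ranged from 28.6 through 35.2 to 40.2 and was 20.2, 16.4, 20.5, 18.1 and 19.2 (-0.87). Its groups were separate, as they were for KIF4A.

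The kinesin-8 pair differed in size. KIF18B, which limits astral microtubules, ranged from 9.94 through 12.2 to 13.6 with R1881 and was 3.35, 6.33, 5.60, 5.44 and 5.18 with enzalutamide (log2 fold change -1.15, SE 0.108). KIF18A, which damps chromosome movements at the metaphase plate, ranged from 5.31 through 7.53 to 9.23 and was 4.93, 3.35, 5.82, 5.30 and 4.94 (-0.59, SE 0.115, limma adjusted p = 0.00016). KIF18A was the only mitotic kinesin whose groups overlapped, through R1881 replicate 6 at 5.31, and it had the smallest fall of the 13. The mean ratio of KIF18A to KIF18B rose from 0.645 ± 0.144 (SD, n = 10) to 0.994 ± 0.335 (SD, n = 5). The groups overlapped, at 0.391 to 0.929 with R1881 and 0.529 to 1.47 with enzalutamide. The exact permutation p was 0.0213, or 0.0256 after Benjamini-Hochberg adjustment over the 6 ratios computed. In each group the lowest ratio came from a library of positive GC trend and the highest from a library of negative trend. KIF18A has the lower GC content of the pair, and the part of the trend in this ratio was not tested.

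The cytokinesis motors spanned the range of the group. KIF20A (MKLP2), which carries the chromosomal passenger complex to the central spindle, ranged from 38.8 through 47.4 to 53.1 with R1881 and was 20.29, 18.14, 19.51, 20.03 and 18.78 with enzalutamide (log2 fold change -1.25, SE 0.064, limma adjusted p = 4.22e-13). KIF23 (MKLP1), the motor subunit of centralspindlin, ranged from 16.7 through 22.4 to 25.3 and was 11.8, 8.93, 12.4, 10.1 and 10.7 (-0.97). KIF14, which binds citron kinase and PRC1, ranged from 12.4 through 16.5 to 20.003 and was 8.70, 6.51, 7.87, 9.79 and 8.51 (-0.95). In all 3 the enzalutamide libraries were wholly below. KIF20B (MPP1), a motor of late cytokinesis, ranged from 22.4 through 30.3 to 37.9 and was 18.7, 15.3, 16.7, 21.2 and 16.7 (-0.71, SE 0.109). Its groups were separate too, but by the narrow gap between 21.2 and 22.4. KIF20A shares 132 and 74 exon bases with BRD8 and CDC23 on the opposite strand. Such overlap is not limited to the kinesins for which it is given. Among others, KIFC2 shares 791 exon bases with FOXH1, KIF7 589 with TICRR (mean value 12.6) and KIFC1 424 with RPL12P1, all on the opposite strand.

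**Figure D3:**
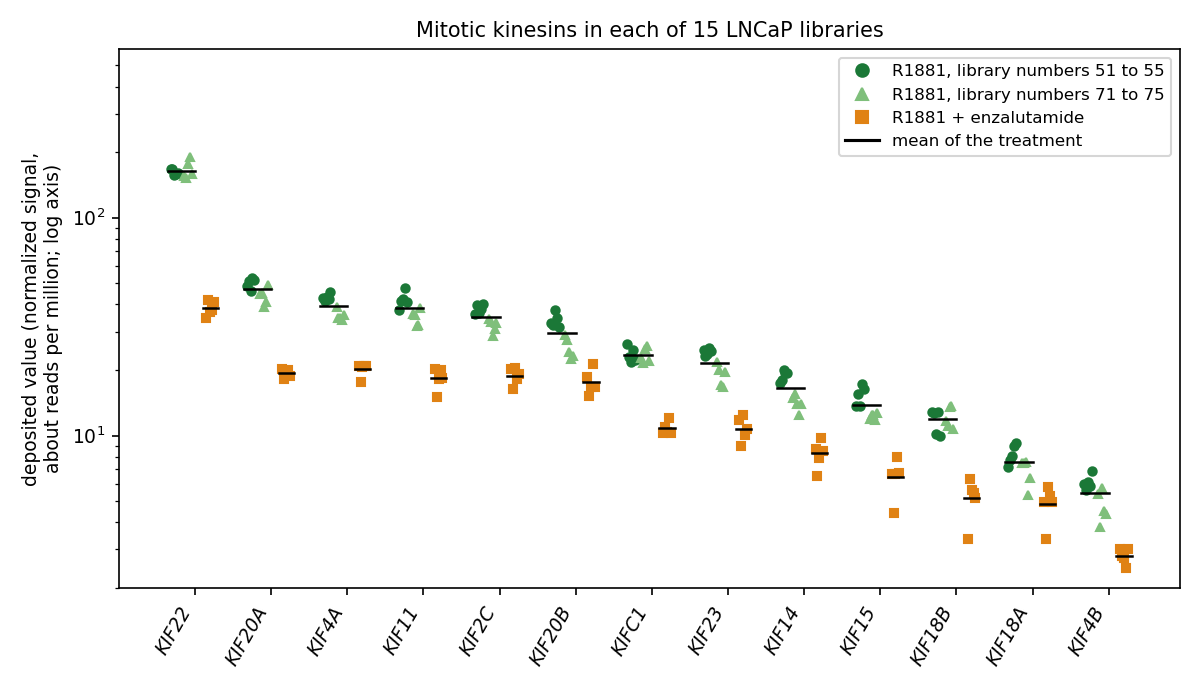
Value (normalized signal, log axis) of the 13 mitotic kinesins in each library, with R1881 libraries in green by label number, enzalutamide libraries in orange and bars at the mean of each treatment. The enzalutamide points lie under all R1881 points for every gene except KIF18A.

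The R1881 libraries differed among themselves in some of these genes. The labels number them 51 to 55 (replicates 1, 4, 7, 9 and 10) and 71 to 75 (replicates 2, 3, 5, 6 and 8), and what the numbers stand for is not given. Between these sets 553 of 16810 genes were called, or 3.29%. Of the 33 kinesins tested there, 8 were called, each lower in libraries 71 to 75: the mitotic KIF11, KIF15, KIF23, KIF14, KIF4A, KIF2C and KIF20B, with log2 differences from -0.42 to -0.26, and KIF24 at -0.30. KIF22 (0.04), KIF18B (0.05) and KIFC1 (-0.01) did not pass and had the smallest differences of the mitotic list. These calls rest on few libraries: leaving out R1881 replicates 5 and 6 left 3 kinesins and 156 genes. Those replicates, of set 71 to 75, have the positive GC trend, and replicates 7, 9 and 10, of set 51 to 55, have the negative one. Neither set has a single direction: replicate 1 of set 51 to 55 was at 0.21 and replicate 3 of set 71 to 75 at -0.23. The part of the GC trend in the difference was not tested beyond a fit with the trend removed. Leaving out a single R1881 library gave 2 to 9 kinesins, with 3 or fewer without replicate 5, 7, 9 or 10, 4 without replicate 4 and 5 without replicate 6. With the GC trend removed from every library 8 were called again, but KIF15 was no longer among them (-0.21, limma adjusted p = 0.059) and KIF20A was (-0.18, limma adjusted p = 0.0376).

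The fall with enzalutamide was present against either set. Against libraries 51 to 55 alone all 13 mitotic kinesins were called lower with a median of -1.12, and against 71 to 75 alone all 13 were called with a median of -0.81. KIF22, with the largest fall of the group, was at -2.06 and -2.10 against the sets, and KIF18A, with the smallest, at -0.71 and -0.46. The enzalutamide libraries carry the numbers 81 to 85, so a difference between runs of numbers and the treatment cannot be told apart beyond this comparison.

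The transport kinesins were led in abundance by kinesin-1. KIF5B, the ubiquitous heavy chain of conventional kinesin, ranged from 345 through 407 to 435 with R1881 and was 513, 452, 474, 528 and 492 with enzalutamide, above every R1881 library (log2 fold change 0.29, SE 0.051, limma adjusted p = 5.37e-05). KIF5C (ENSG00000168280, chr2:148875227-149026759, GRCh38, plus strand), the heavy chain best known from neurons, moved the other way. It ranged from 65.0 through 76.9 to 81.5 with R1881 and was 52.3, 51.5, 50.6, 51.1 and 52.4 with enzalutamide, a spread of under 2 units below the whole R1881 range (-0.54, SE 0.047, limma adjusted p = 2.49e-09). The ratio of KIF5C to KIF5B fell from 0.187 ± 0.00656 (SD, n = 10) to 0.105 ± 0.00638 (SD, n = 5), with an exact permutation p of 0.000333, the smallest possible here. Since each gene was already separate, in opposite directions, the ratio had to separate too, and this p adds no evidence to the single-gene results. Both numbered sets of R1881 libraries lay at the higher ratio, as the plot of family ratios shows.

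Kinesin-2 carries vesicles and intraflagellar cargo as KIF3A joined to KIF3B or KIF3C. KIF3A, the shared subunit, ranged from 37.9 through 45.5 to 52.7 with R1881 and was 49.6, 37.0, 42.8, 45.6 and 46.7 with enzalutamide. The groups overlapped broadly and the difference did not pass (log2 fold change -0.04, 95% interval -0.19 to 0.11, limma adjusted p = 0.634). KIF3B rose by little, from a mean of 143 to 158 (0.14). KIF3C (ENSG00000084731, chr2:25926598-25982749, GRCh38, minus strand), the alternative partner, ranged from 10.2 through 12.4 to 13.5 with R1881 and was 25.7, 26.5, 24.2, 22.5 and 23.7 with enzalutamide. Every enzalutamide library exceeded every R1881 library, with a log2 fold change of 0.99 (SE 0.067, limma adjusted p = 4.19e-11), the largest rise of the transport list. The ratio of KIF3C to KIF3B rose from 0.0851 ± 0.0108 (SD, n = 10) to 0.156 ± 0.0144 (SD, n = 5), with an exact permutation p of 0.000333.

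Kinesin-3 motors of vesicles and organelles moved in both directions. KIF1C, a motor of secretory vesicles and integrins, ranged from 217 through 235 to 267 with R1881 and was 158, 177, 145, 156 and 161 with enzalutamide (log2 fold change -0.57, SE 0.05, limma adjusted p = 2.35e-09). KIF13B (GAKIN), which binds DLG scaffold proteins, ranged from 17.7 through 18.8 to 21.0 and was 12.3, 13.1, 12.2, 11.4 and 12.2 (-0.62, SE 0.053). In neither did the groups overlap. KIF13A, a motor of endosomes, fell by less (-0.21), with overlap. KIF1B, a motor of mitochondria and vesicle precursors, rose from a mean of 170.5 to 199.5 (0.23) without overlap, and KIF16B, a motor of early endosomes, rose with overlap (0.27, limma adjusted p = 0.0128). The call of KIF16B was lost without enzalutamide replicate 1 (0.23, limma adjusted p = 0.0502) and without the 3 libraries of positive GC trend (0.20, limma adjusted p = 0.0657). KIF1A, the motor of synaptic vesicle precursors, and KIFC2 differed by -0.02 each and did not pass, with 95% intervals of -0.19 to 0.16 and -0.25 to 0.21.

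The ratio of KIF1C to KIF1B fell from 1.40 ± 0.146 (SD, n = 10) to 0.800 ± 0.0753 (SD, n = 5), with an exact permutation p of 0.000333. As with KIF5C and KIF5B, the single genes were separate in opposite directions, so this outcome was fixed and the p adds no evidence. The 6 ratios were chosen after the values were seen, and no p given for them accounts for that choice. After Benjamini-Hochberg adjustment over them, those of KIF5C to KIF5B, KIF3C to KIF3B, KIF22 to KIF20A and KIF1C to KIF1B had an exact permutation p of 5e-04, while that of KIF4B to KIF4A stayed at 0.775.

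**Figure D4:**
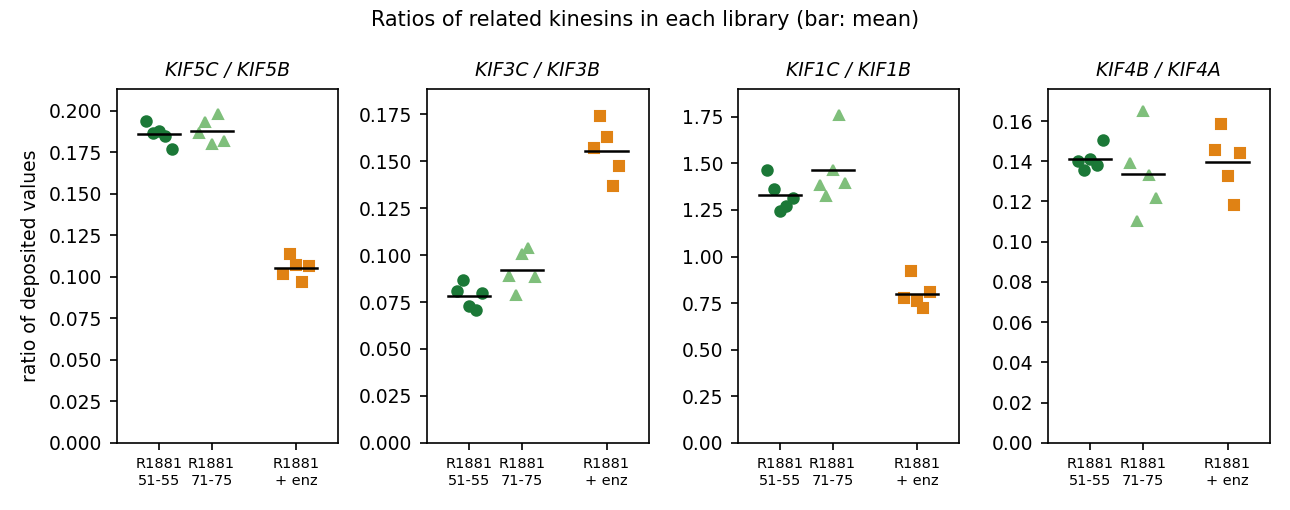
Ratio of the values of related kinesins in each library, with R1881 libraries by label number (green) and enzalutamide libraries (orange); bars are means and axes start at 0. KIF5C over KIF5B and KIF1C over KIF1B are lower in every enzalutamide library, KIF3C over KIF3B is higher in every one, and KIF4B over KIF4A overlaps throughout.

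Of 17 adaptors and cargo links of the transport kinesins 5 fell, 4 rose and 8 did not pass, with a median of -0.05. Among all genes 32.7% fell and 29.8% rose, so these counts do not set the list apart. The kinesin-1 light chains went apart: KLC2 fell (-0.55) with overlapping groups and KLC4 rose (0.56) without overlap, while KLC1 did not pass (-0.03). KLC3 rose (0.48, limma adjusted p = 0.0317) from a low mean of 1.44 to 2.13, with overlapping groups. RHOT2, which links motors to mitochondria, fell (-0.33, limma adjusted p = 0.0412) with overlapping groups. TRAK2, an adaptor on mitochondria, rose (0.33) without overlap. KIFAP3, the third subunit of the KIF3 motor, fell by 0.21 on the log2 scale with overlapping groups. KLC1 and KIFAP3 were named after their values were seen.

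**Figure D5:**
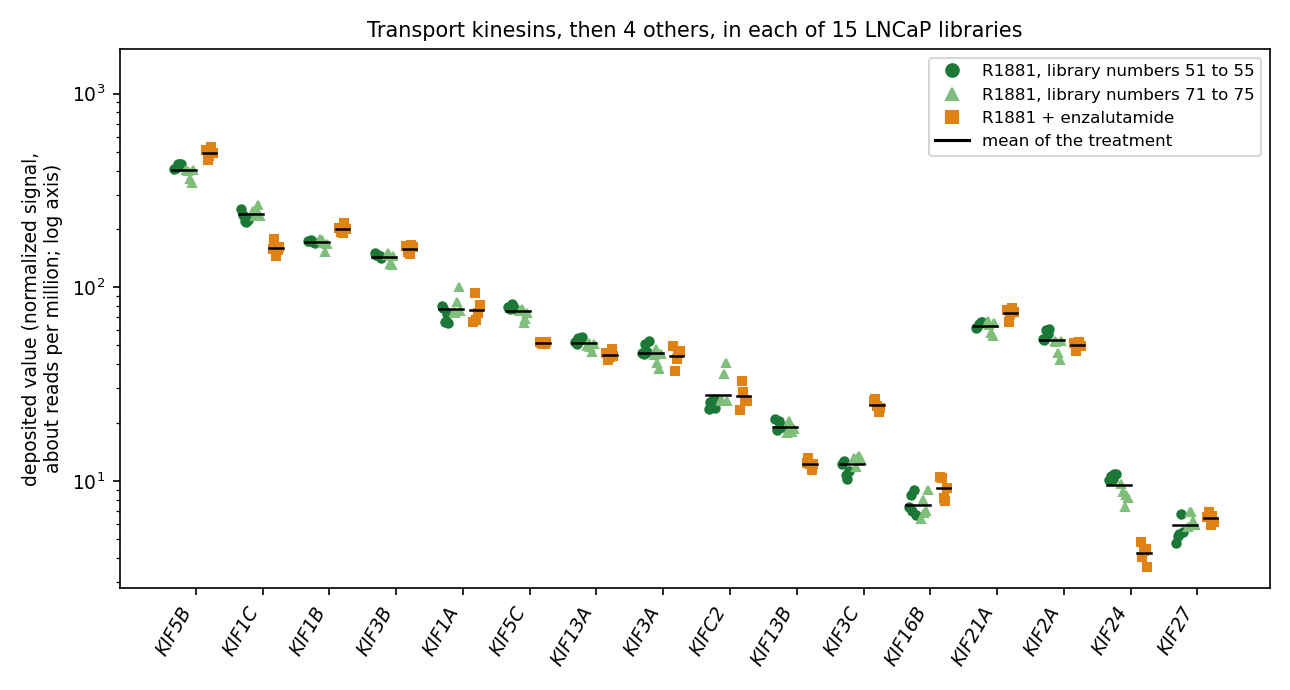
Value (normalized signal, log axis) of the 12 transport kinesins and of the 4 ciliary or other kinesins with a mean of at least 5 in each library, with R1881 libraries in green by label number, enzalutamide libraries in orange and bars at the mean of each treatment. KIF1C, KIF5C, KIF13B and KIF24 lie wholly lower with enzalutamide, and KIF5B, KIF1B and KIF3C wholly higher.

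Of the ciliary or other kinesins, KIF24 had the only fall. KIF24 (ENSG00000186638, chr9:34252380-34329268, GRCh38, minus strand), a depolymerase of centrioles that holds back cilia, ranged from 7.36 through 9.87 to 10.9 with R1881 and was 4.84, 4.05, 4.32, 4.45 and 3.57 with enzalutamide. The groups did not overlap, and the log2 fold change was -1.07 (SE 0.092, limma adjusted p = 2.05e-09). KIF24 shares 144 exon bases with UBAP1, of mean value 92.7, and 184 with the pseudogene SERPINH1P1, both on the opposite strand. Its promoter, printed above, holds CCAAT letters and the rarer CHR form TTCGAA from 2 to 7, just after the printed stretch. KIF2A, the depolymerase of spindle poles, cilia and neurites in the same family as KIF24 and the mitotic KIF2C, ranged from 41.9 through 53.2 to 61.0 with R1881 and was 51.4, 46.8, 51.6, 51.9 and 49.8 with enzalutamide. It did not pass (-0.07, 95% interval -0.21 to 0.07, limma adjusted p = 0.38), but was called against libraries 51 to 55 alone (-0.18, limma adjusted p = 0.00315) and without the 3 libraries of positive GC trend (-0.11, limma adjusted p = 0.0313). It shares 2446 exon bases with DIMT1 on the opposite strand. The 3 kinesin-13 genes in the table thus spanned from -1.07 to -0.07.

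KIF26B, of a family without ATPase activity, had few reads. It ranged from 0.203 through 0.498 to 0.692 with R1881 and was 2.33, 1.81, 2.37, 1.89 and 2.47 with enzalutamide, from 3 to 63 reads per library. The groups were separate, with a log2 fold change of 1.46 (SE 0.128, limma adjusted p = 2.9e-09), the largest rise of any kinesin, and on this scale the added 0.5 understates the change of so low a gene: the ratio of the means was 4.55. KIF12 and KIF6, also low, rose by 0.53 each, from a median of 12 to 22 reads and of 17 to 30 reads per library. The added 0.5 shrinks these changes as well, and edgeR on the reads gave 0.91 and 0.79 for them and 2.21 for KIF26B. KIF21A, a regulator of microtubule growth at the cortex, rose from a mean of 63.0 to 73.4 (0.22). KIF9, KIF27 and KIF7 did not pass, with differences from -0.04 to 0.15.

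The order of the kinesins changed as the mitotic ones fell. Per kilobase of the canonical GENCODE v44 transcript, KIF22 had the highest level with R1881, 78.9 ± 5.64 (SD, n = 10), followed by KIF5B at 68.7 ± 5.10, then by KIF1C and, in place 4, KIF3B at 23.4 ± 1.14. With enzalutamide KIF5B came first at 83.8 ± 5.15 (SD, n = 5), followed by KIF3B at 25.8 ± 1.19 and KIF1C at 20.1 ± 1.47. KIF22 at 18.5 ± 1.48 and KIF1B at 18.4 ± 0.926 came next and lay within their spread of each other. The first place of KIF22 with R1881 depends on the transcript used: over the union of its annotated exons, 7169 bases instead of 2081, it came in place 4. Per kilobase of the exon union, its level with enzalutamide was 5.356, below KIF1C at 18.57 and KIF1B at 10.55. By canonical transcript KIF20A went from place 6 to place 14 and KIF3C from place 22 to place 15.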

How the data were processed

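The data are 15 libraries of poly-A RNA from LNCaP cells. Per the submitters' processing notes the authors used bcl2fastq 2.17, STAR, featureCounts and GRCh38, and they deposited 1 table of normalized signal per gene. No source used here gives the other tool versions, the annotation, use of the strand in counting, the gene filter or the library scaling. The study's methods call the values CPM, but library sums of 985580 to 1078567 show another scaling. Every value (100%) was an integer number of reads times a library factor (tolerance 0.01 reads), which gave back the reads. Columns without a sample numbered 0. The methods give the group sizes the other way round, and the labels were followed. In 55 of 55 pairs within a treatment the libraries differed beyond sampling noise.

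Genes were tested with limma 3.58.1 in R 4.3.3 (mean-variance trend, log2(value + 0.5), mean of at least 0.5, Benjamini-Hochberg adjustment over 17046 genes, threshold 0.05), tested on simulated data first. All 34 kinesins passed the filter. Fold changes are on the log2(value + 0.5) scale. Ratios were compared by two-sided exact permutation tests. Alternatives were edgeR 4.0.16 and DESeq2 1.42.0 on the recovered reads, other pseudocounts, filters, scalings and library sets, a replicate block and each library left out. GC trend removal and leaving out the libraries of positive GC trend were added after seeing the data. The members and lists were chosen with earlier results of these data known. Values per library are given for mitotic kinesins, for others called with an absolute log2 fold change of at least 0.4 and a mean of at least 1, and for KIF5B, KIF3A and KIF2A. Partner and dynein genes named are the 3 lowest and 3 highest called per list, and 1 gene that this rule names is not reported here. Positions and lengths are from GENCODE v44.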

Additional observations from a re-analysis of the deposited data

Results flagged for a closer look

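Each kinesin in each treatment, 68 groups of libraries, was examined for a single library far from the others, and chance alone would flag about 1 group in 20, or 3.4 of them. KIF4A was low in enzalutamide replicate 2, at 17.6, where the other enzalutamide libraries lay between 20.6 and 20.9. That library has a positive trend on GC content. KIF1B was low in R1881 replicate 6, at 152, where the other R1881 libraries lay between 167 and 178, and that library has a positive trend on GC content too. In both cases the part of GC content in the low value was not tested.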

How the results depend on the processing

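All 13 mitotic kinesins were called lower in every alternative with the same list and threshold, namely other pseudocounts, filters, scalings, edgeR, DESeq2, each set of R1881 libraries, GC trend removed, and each library left out. Moving KIF2A into the list and KIF22 and KIF20B out of it gave 11 mitotic kinesins lower, 4 transport kinesins lower and 5 higher, and 3 ciliary or other kinesins lower. A required 2-fold change left 1270 genes (714 lower, 556 higher), 8 kinesins, 6 mitotic, 0 transport in either direction and 1 other kinesin higher. Other kinesins higher also numbered 1 with a mean of at least 2 or 5, and other kinesins lower numbered 2 against libraries 51 to 55 alone and without the 3 libraries of positive GC trend, through KIF2A. Between the R1881 sets, removing the GC trend gave 906 genes, and leaving out replicates 5 and 6 gave 156 genes, 3 kinesins and 3 mitotic. The cause of the changes between the R1881 sets was not tested.

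Without each library in turn, 26 to 27 kinesins were called (13 mitotic lower, 4 transport lower, 4 to 5 transport higher, 1 other lower and 4 higher) and 10071 to 10877 genes (5297 to 5662 lower, 4774 to 5215 higher). Between the R1881 sets the counts ran from 56 to 969 genes, 2 to 9 kinesins and 2 to 7 mitotic.

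Replicates that share a number were not otherwise paired (correlation of deviations -0.07 to 0.07). A replicate block over numbers 1 to 5 called 10117 genes (5253 lower, 4864 higher) and 27 kinesins, 13 mitotic lower, and moved no count by over 1.5 times.

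Of 982 single-gene values, 977 kept their call, 3 gained it and 2 lost it, and no called value changed sign. KIF27 passed with library totals set to 1000000 (0.20, limma adjusted p = 0.0432), which also moved the median of all genes from -0.01 to 0.08 and the split of calls to 4288 lower and 6629 higher. KIF2A and KIF16B are given in the report. Among the values that did not pass, 27 changed sign, in 6 genes.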

Other observations

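Dynein is a motor that moves toward microtubule minus ends. Of 23 genes of dynein and its cofactors 10 fell, 8 rose and 5 did not pass, with a median log2 fold change of -0.10, beside 32.7% and 29.8% of all genes. The fall of BICD2, an adaptor that joins dynein to Golgi vesicles and the nucleus, was the largest of the list: its mean went from 61.2 ± 2.55 (SD, n = 10) to 26.8 ± 0.987 (SD, n = 5), a log2 fold change of -1.17 (limma adjusted p = 2.24e-16). Its paralog BICD1 rose by 0.20. The light chain DYNLL2 (-0.65) and the light intermediate chain DYNC1LI1 (-0.46) fell, while the dynactin subunits DCTN1 (0.36) and DCTN4 (0.32) and the light chain DYNLT1 (0.33) rose. The heavy chain DYNC1H1 rose by 0.10 with overlapping groups. BICD1 and DYNC1H1 were named after their values were seen.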
